A study of Mus musculus with 3 samples.

Results

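The Runx genes, their shared partner Cbfb and the C/EBP genes encode transcription factors of the blood system, and 9 of them were followed here: Runx1, Runx2, Runx3, Cbfb, Cebpa, Cebpb, Cebpd, Cebpe and Cebpg. All probe sets annotated to these symbols were taken, a probe set being a group of short oligonucleotides that reports 1 transcript region. They numbered 17 of 45101 probe sets and covered 7 of the 9 genes, which were 7 of 18194 named genes. Runx2 and Cebpe had no probe set under their names in the annotation used and were not analysed here. All 7 named members reached the floor, set at the median of all signals (110.4), on at least 1 array and were among 12597 genes counted as measured by that criterion.

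The study compared mouse LSK cells, the lineage-negative, Sca-1-positive, Kit-positive fraction of blood-forming cells that holds stem cells and multipotent progenitors. There were 3 Affymetrix arrays, 1 for each genotype: cells labelled as knocked out for both p53 and Mef (DKO), cells labelled as knocked out for p53 alone (p53 KO), and wild-type cells (WT). By these labels the DKO and p53 KO cells share the loss of p53 and differ in Mef, an ETS factor encoded by Elf4. With 1 array each, that comparison also carries any other difference between the samples. The sources used here give no strain, age, treatment or number of animals for any array, and no design for either knockout allele. Without replicates no difference has an error and none was tested.

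Median signal was 128.7, 105.5 and 98.0 on the DKO, p53 KO and WT arrays, and 53.8%, 48.9% and 47.3% of probe sets reached the floor. Elf4 had signals of 151 (DKO), 182 (p53 KO) and 57.4 (WT), with 129, 173 and 74.3 from a further probe set. Elf4 on the array labelled DKO was therefore above WT and below p53 KO. The sources used here do not place these probe sets inside or outside the deleted region, so they do not check the label. With p53 itself not analysed here, the genotypes rest on the labels, and DKO, p53 KO and p53-null below mean the arrays labelled so. Of 8 genes that mark LSK cells, 6 were named on the array (Kit, Cd34, Flt3, Procr, Slamf1 and Hlf) and all 6 reached the floor on each array. The Sca-1 gene Ly6a was not analysed here.

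Runx proteins bind DNA through a conserved Runt domain, and Cbfb, which does not bind DNA itself, raises their affinity for it. Runx1 is needed for the first blood stem cells to form in the embryo and later for platelet and lymphoid development, while Runx3 is best known for its part in T cells. C/EBP proteins bind DNA as dimers through a basic leucine zipper. Cebpa drives the step from progenitors to granulocytes and monocytes, Cebpb supports granulocyte production under stress, Cebpd is induced in inflammation, and Cebpg is a short member that lacks the usual activation region and pairs with others.

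Sequences upstream of the annotated start sites are shown for the genes on which most of the description turns, Cebpa and Cebpb among the C/EBP genes and Runx1 with its pair of alternative starts 128745 bases apart. Each line holds the 120 bases before the start, 5′ to 3′ on the gene's own strand, from RefSeq (GRCm38.p6). Capitals mark matches on either strand to any of 6 motifs: the CCAAT box (CCAAT), the Runx site (TGTGGT), the C/EBP palindrome (TTGCNNAA), the core of the cAMP response element (TGACG), the ETS core (CCGGAA) and the TATA box (TATAAA).
Cebpa, chr7:35119173-35119292, plus strand: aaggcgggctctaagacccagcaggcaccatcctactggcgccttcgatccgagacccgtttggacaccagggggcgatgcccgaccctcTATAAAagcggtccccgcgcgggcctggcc
Cebpb, chr2:167688795-167688914, plus strand: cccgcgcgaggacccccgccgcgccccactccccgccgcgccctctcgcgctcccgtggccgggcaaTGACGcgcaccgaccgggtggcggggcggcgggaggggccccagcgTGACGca
Runx1, distal start, chr16:92826075-92826194, minus strand: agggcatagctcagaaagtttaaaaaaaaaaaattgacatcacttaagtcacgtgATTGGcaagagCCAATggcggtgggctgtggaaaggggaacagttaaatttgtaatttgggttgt
Runx1, proximal start, chr16:92697330-92697449, minus strand: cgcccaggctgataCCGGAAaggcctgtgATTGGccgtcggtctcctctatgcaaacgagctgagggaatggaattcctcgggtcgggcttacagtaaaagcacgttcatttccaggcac

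The Cebpa window held a TATA box 30 bases before the start, a motif found in 6.34% of 32851 promoter windows of the same length. The Cebpb window held TGACG at 53 and at 7 bases before the start, and 11.7% of windows hold that motif. At the distal Runx1 start there was a CCAAT box on each strand, 65 and 54 bases before the start, and at the proximal start there was 1 CCAAT box at 91 bases. The CCAAT box occurs in 21.3% of windows. The proximal window also held the ETS core at 106 bases, which 8.07% of windows hold. None of these 4 windows held the Runx letters, present in 6.72% of windows, or the C/EBP letters, present in 4.15%. No motif matches overlapped in the sequences shown. Of the 9 members, 7 had an entry in the promoter table, with 9 start sites, and Cebpd and Cebpe were not matched. The GC content was 66.7% for Cebpa, 83.3% for Cebpb, 40.0% for the distal and 55.8% for the proximal Runx1 window, beside a median of 54.2% over all windows. These matches describe the letters of the windows and the arrays give no measure of binding.

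The members parted into distinct patterns over the 3 arrays. Cebpa and Cbfb were higher on both p53-null arrays than on WT, and Cebpa was the member with the largest difference between DKO and WT. Cebpb and Cebpd were high on the p53 KO array alone, with DKO close to WT or below it. Runx1 and Runx3 were highest on DKO, by less than 2-fold in their brightest probe sets, and Cebpg was at nearly the same signal on all 3 arrays by its brightest probe set. Differences are given as log2 signal on the first-named array minus log2 signal on the second. Signals under the floor were set to the floor before log2, and each gene is represented by its probe set with the highest mean signal unless stated. The arrays measured RNA from a pool of sorted cells, so a different share of cells that carry a transcript and a different amount per cell cannot be told apart.

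**Figure D1:**
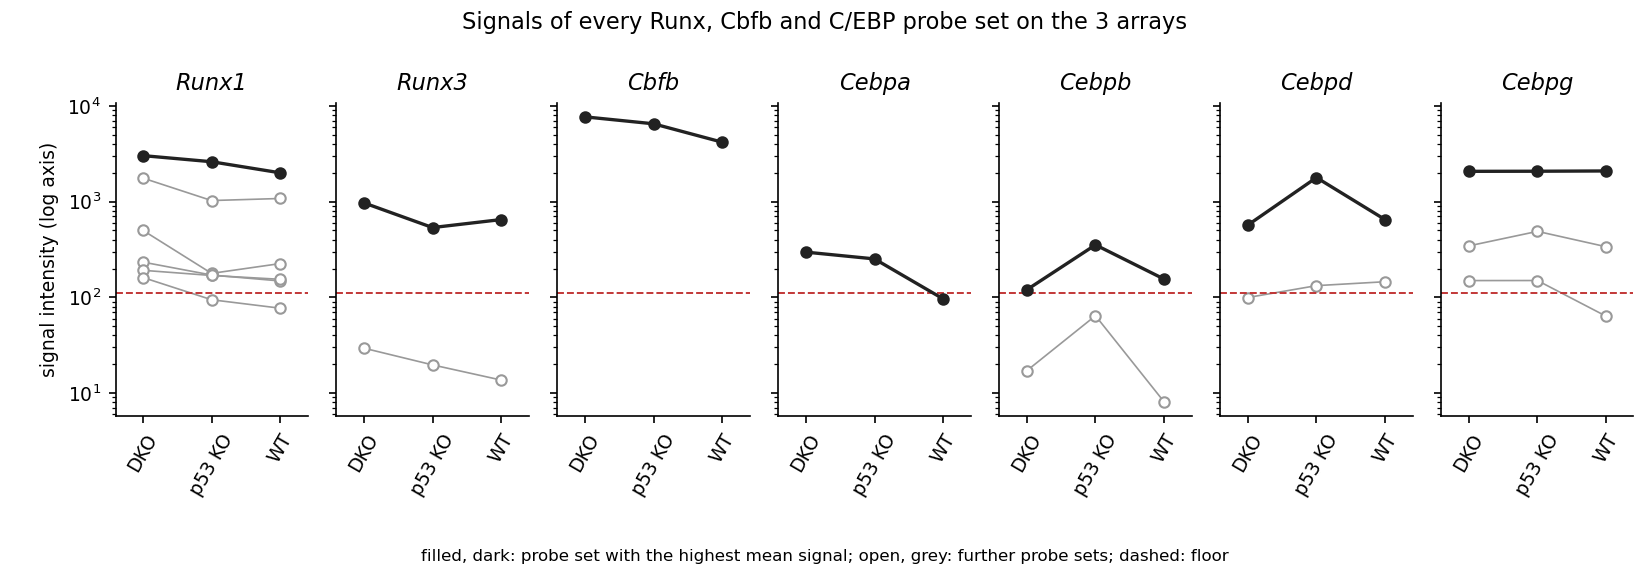
Signal intensity (log axis) of all 17 probe sets of the 7 named members on the DKO, p53 KO and WT arrays, with the brightest probe set of each gene as filled dark points, further probe sets as open grey points and the floor of 110.4 as a dashed line. There is 1 array per genotype, so no error is drawn. The brightest probe sets of Cebpb and Cebpd peak on the p53 KO array, Cebpa lies under the floor on WT alone, and the brightest Cebpg probe set is level.

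Among the Runx genes, Runx1 was measured by 6 probe sets. The brightest, 1422864_at, had signals of 3028 on DKO, 2614 on p53 KO and 2002 on WT. On the log2 scale DKO was 0.60 above WT, p53 KO was 0.38 above WT, and DKO was 0.21 above p53 KO. DKO was the highest and WT the lowest, with a span of 1.51-fold. All 6 Runx1 probe sets were higher on DKO than on WT, with log2 differences of 0.31 to 1.15 in these probe sets, and all 6 were higher on DKO than on p53 KO, by 0.18 to 1.49. Of all named probe sets over the floor on at least 1 array, 58.0% were higher on DKO than on WT and 60.5% higher than on p53 KO.

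The further Runx1 probe sets did not share 1 order for p53 KO and WT. Probe set 1440878_at gave 1763 on DKO, 1027 on p53 KO and 1080 on WT, so that p53 KO and WT were close and DKO stood apart. Probe set 1452531_at gave 501.5, 178 and 225.5 in the same order of arrays, and it was the only Runx1 probe set at least 2-fold higher on DKO, at 1.15 against WT and 1.49 against p53 KO. The remaining 3 lay nearer the floor, between 77.1 and 234. Over the 5 probe sets that reached the floor on p53 KO or WT, the differences of p53 KO against WT ran from -0.34 to 0.38, with 3 higher and 2 lower. The direction of Runx1 on p53 KO against WT therefore depended on the probe set. These probe sets read the same RNA and are not replicates, and the annotation does not say which transcripts from the distal or proximal start each one detects.

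Runx3 had 1 probe set above the floor, 1440275_at, with signals of 972 on DKO, 536 on p53 KO and 650.0 on WT. DKO was the highest of the 3 and p53 KO the lowest. The log2 difference was 0.86 for DKO against p53 KO, 0.58 for DKO against WT and -0.28 for p53 KO against WT. Its other probe set stayed under the floor on every array, at 29.5, 19.7 and 13.7, and gives no order.

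Cbfb, the partner of all Runx proteins, had 1 probe set, 1460716_a_at, with signals of 7696 on DKO, 6512 on p53 KO and 4185 on WT. Both p53-null arrays were thus above WT, by 0.88 for DKO and 0.64 for p53 KO on the log2 scale, which is 1.84-fold and 1.56-fold. The difference between them was 0.24. For DKO against WT, 7.60% of all measured genes had a higher difference than Cbfb, and for p53 KO against WT 13.7% had.

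Among the C/EBP genes, Cebpa was read by 1 probe set, 1418982_at, with signals of 297 on DKO, 252 on p53 KO and 96.5 on WT. The WT signal lay under the floor, so Cebpa was at least 2.69-fold higher on DKO and at least 2.29-fold higher on p53 KO, with log2 differences of at least 1.43 and at least 1.19. Cebpa was thus over the floor on both p53-null arrays and not on WT. DKO and p53 KO differed by 0.24, which loess normalization brought to 0.00. Among the floored values, 1.21% of measured genes had a higher difference than Cebpa for DKO against WT, and 4.41% for p53 KO against WT. Other genes under the floor on WT have lower bounds too, so these shares are not limits. All Cebpa signals were low, and no other probe set of the gene was named on the array to set beside this one.

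Cebpb, by probe set 1418901_at, had signals of 120 on DKO, 354 on p53 KO and 155 on WT. It stood out on the p53 KO array, where it was 2.28-fold above WT (log2 difference 1.19). DKO was below p53 KO by 2.94-fold (-1.56) and below WT by 1.29-fold (-0.37). The other Cebpb probe set was under the floor throughout, at 17.1 on DKO, 64.3 on p53 KO and 8.10 on WT. Averaged over both probe sets, Cebpb stayed under 2-fold, at 0.59 for p53 KO against WT and at -0.78 when DKO was set against p53 KO.

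Cebpd, by probe set 1423233_at, followed the same course at signals of 569 on DKO, 1785 on p53 KO and 649 on WT. It was 2.75-fold higher on p53 KO than on WT (1.46), and DKO was 3.14-fold below p53 KO (-1.65) and 1.14-fold below WT (-0.19). Its other probe set, 1456605_at, did not show the peak, with signals of 99.7 on DKO, 133 on p53 KO and 146 on WT, all near the floor. The high Cebpd value on p53 KO thus rests on the bright probe set, and averaged over both the Cebpd differences were under 2-fold, at 0.66 for p53 KO against WT and at -0.96 when DKO was set against p53 KO.

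Cebpg, by probe set 1425262_at, had signals of 2075 on DKO, 2080 on p53 KO and 2093 on WT, which span 1.01-fold. A dimmer probe set, 1451639_at, was at 345, 489 and 338 in the same order, 1.45-fold higher on p53 KO than on WT. The dimmest, 1425261_at, was at 150 on both p53-null arrays and at 63.6, under the floor, on WT. The level pattern of the brightest probe set was thus not repeated by the dimmer ones.

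**Figure D2:**
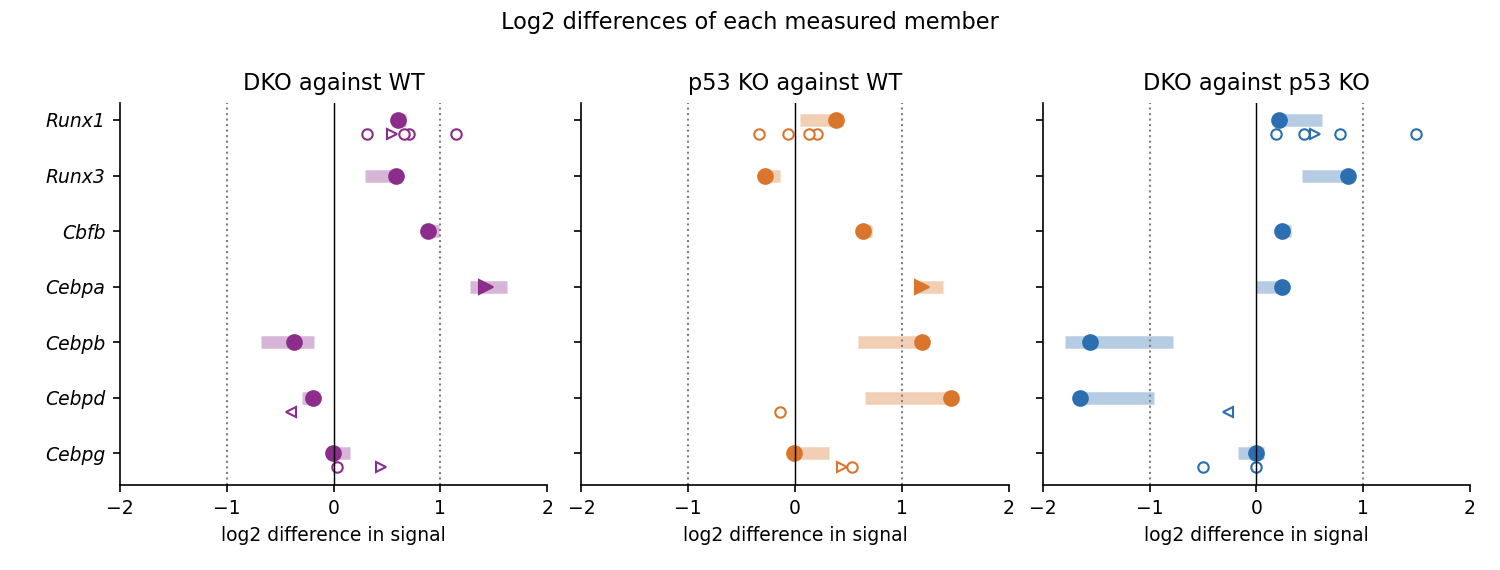
Log2 difference in signal of each measured member in the 3 comparisons, 1 to a panel, with the brightest probe set as a filled marker, further probe sets as open markers below it, triangles for lower bounds against an array under the floor, and pale bars for the range over alternative processing settings. Dotted lines mark 2-fold. The brightest probe sets of Cebpb and Cebpd lie past 2-fold upward for p53 KO against WT and past it downward when DKO is set against p53 KO. Cebpa lies past it in both panels against WT.

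Counted over the 7 measured members, 1 was at least 2-fold higher on DKO than on WT (Cebpa) and 0 were at least 2-fold lower, where 5.22% of all measured genes were higher and 3.10% lower by that measure. On p53 KO against WT, 3 members were at least 2-fold higher (Cebpa, Cebpb and Cebpd) and 0 lower, where 6.51% of genes were higher and 3.19% lower. On DKO against p53 KO, 0 members were higher and 2 were lower (Cebpb and Cebpd), where 4.10% of genes were higher and 5.93% lower. The median log2 difference over the members was 0.58, 0.64 and 0.21 in these comparisons, beside 0.07, 0.00 and 0.11 over all measured genes. Relative to the last of these, Cebpb and Cebpd were at -1.67 and -1.76 for DKO against p53 KO. The 3 comparisons use the same 3 arrays in pairs, so the high values on p53 KO enter both comparisons with that array. No probability can be attached to these counts with 1 array per genotype.

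**Figure D3:**
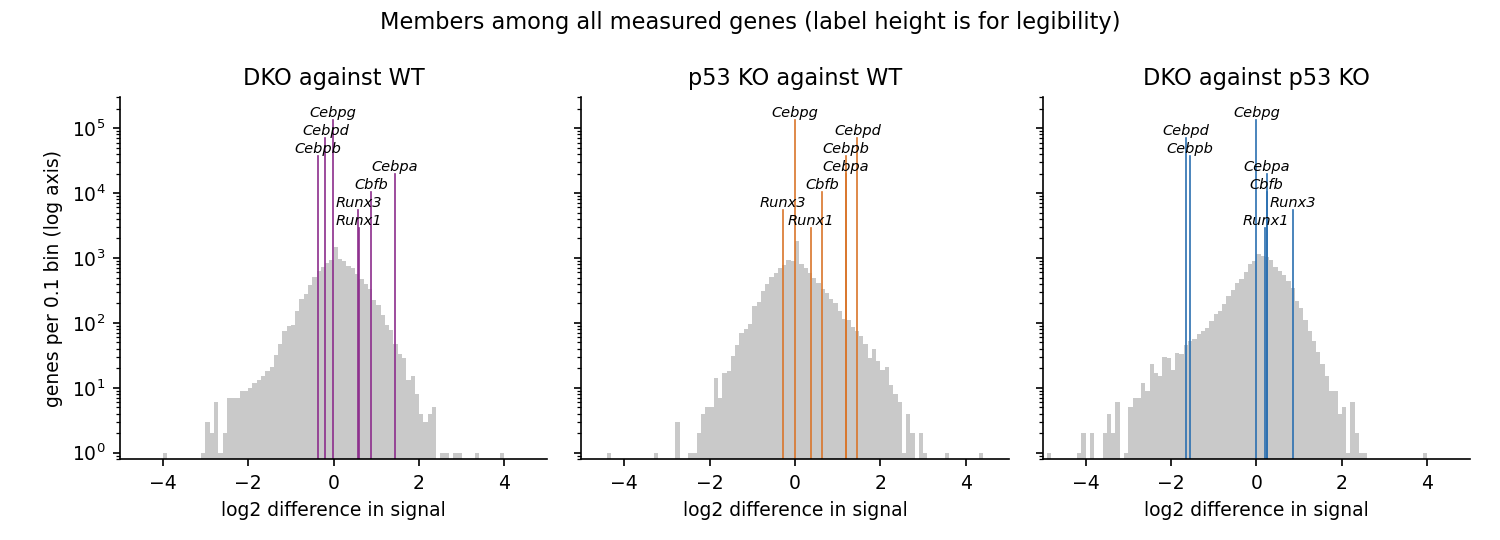
Number of measured genes (log axis) by log2 difference in signal, in bins of 0.1, for the same 3 comparisons, with a vertical line at the value of each member's brightest probe set. Cebpd and Cebpb lie in the lower tail for DKO against p53 KO, where 2.23% and 2.60% of genes are below them, and Cebpg lies near the centre of all 3 panels.

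These C/EBP values stood beside higher markers of mature myeloid cells on the p53 KO array, where markers of other lineages were higher too. Of 11 monocyte and macrophage markers, all of them named, 9 were at least 2-fold higher on p53 KO than on WT, and their summed signal was 25597 on DKO, 61471 on p53 KO and 24188 on WT. All 11 reached the floor on DKO and p53 KO and 10 on WT, where the Fc receptor gene Fcgr1 was under it. All 15 granulocyte markers reached the floor on each array, and their summed signal was 136869, 261459 and 143744 in the same order. Of these, 8 were at least 2-fold higher on p53 KO than on WT and 8 at least 2-fold lower on DKO than on p53 KO. Over all measured genes 6.51% were higher and 5.93% lower in these comparisons. The rise over WT was not particular to myeloid markers. Of the B cell markers 8 of 9 measured were at least 2-fold higher on p53 KO than on WT. So were 6 of 9 megakaryocyte and 3 of 6 T and NK cell markers. For mast cell, basophil and eosinophil markers it was 3 of 7, and for erythroid markers 2 of 12, with 1 lower. The 6 measured genes that mark LSK cells had a summed signal of 22478 on DKO, 11045 on p53 KO and 14121 on WT. For p53 KO against WT 0 of them passed 2-fold, 3 were higher and 3 lower, and their median log2 difference was 0.02, running down to -0.99 for Kit and up to 0.52 for Procr. For DKO against p53 KO 2 were at least 2-fold higher (Flt3 at 1.66 and Cd34 at 1.44) and 0 lower, with a median of 0.8. For DKO against WT 1 was higher (Cd34 at 1.57) and 0 lower, with a median of 0.41. The shares of all measured genes higher by 2-fold were 4.10% and 5.22% in these comparisons. The part of mature cells in the Cebpb and Cebpd values was not tested.

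Targets of C/EBP factors in myeloid cells were described from a list of 25 genes, of which 24 were named and 23 measured. On p53 KO against WT, 12 of these 23 were higher by 2-fold or more and 0 were lower by as much, and all 23 were higher by sign. Over all measured genes 6.51% were higher and 3.19% lower by 2-fold, and 46.2% were higher by sign. Itgam, at 48.9 on DKO, 178 on p53 KO and 54.6 on WT, was measured through p53 KO alone, so its sign was fixed in advance. The median log2 difference of the list was 1.10, beside 0.00 over all genes. For DKO against p53 KO the median was -1.63, with 13 genes at least 2-fold lower and 0 higher, and for DKO against WT it was -0.25, with 4 higher and 2 lower. Over all measured genes 5.93% were lower and 4.10% higher in the first of these, and 5.22% higher and 3.10% lower in the second. All 15 granulocyte markers above are also on this list, so both describe largely the same genes.

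Within the target list the genes of primary granules, made at the promyelocyte stage, did not follow the genes of later granules. Elane, the gene of neutrophil elastase, had signals of 2308 on DKO, 1719 on p53 KO and 800.1 on WT. Ctsg, the gene of the granule protease cathepsin G, had 14770 on DKO, 10135 on p53 KO and 5071 on WT. Mpo, which encodes myeloperoxidase, had 27120.2 on DKO, 27108 on p53 KO and 14665 on WT. These primary granule genes were higher on both p53-null arrays than on WT, as Cebpa was, with log2 differences for DKO against WT of 1.53, 1.54 and 0.89.

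The later granule genes peaked on p53 KO instead. Camp, which encodes the antimicrobial peptide cathelicidin, had signals of 4509 on DKO, 23481 on p53 KO and 10292 on WT. Ltf, the lactoferrin gene, had 3861 on DKO, 21251 on p53 KO and 8630 on WT, and the collagenase gene Mmp8 had 1112, 6711 and 1969. On DKO these were thus below WT as well as below p53 KO, with log2 differences from p53 KO of -2.38 for Camp, -2.46 for Ltf and -2.59 for Mmp8. The neutrophil surface protein gene Cd177 had the largest differences on the list in both comparisons with the p53 KO array (2.26 set against WT, and -2.76 for DKO set against p53 KO), at 1347 on DKO, 9104 on p53 KO and 1896 on WT. Cebpe, known for its part in the later granule genes, was not analysed here. The division of the list by granule stage was made after the values were seen.

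**Figure D4:**
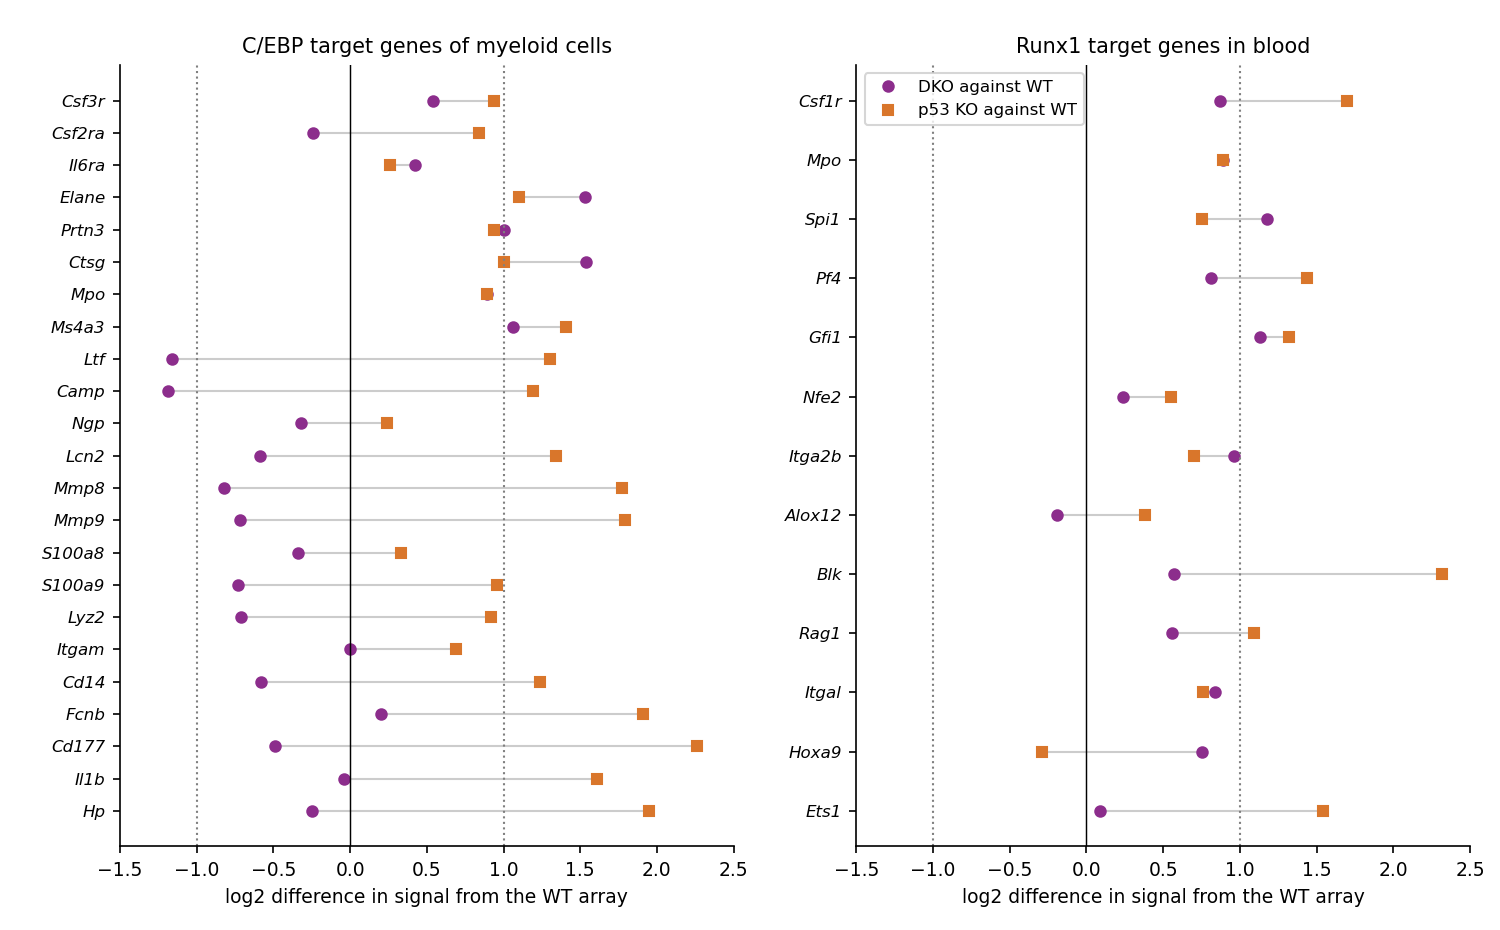
Log2 difference in signal from the WT array for each measured gene of the C/EBP target list (left, 23 genes) and the Runx1 target list (right, 13 genes), with circles for DKO against WT and squares for p53 KO against WT. Dotted lines mark 2-fold. Elane and Ctsg lie to the right for both arrays, while Camp and Ltf lie past 2-fold on opposite sides, right for p53 KO and left for DKO.

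Genes known as Runx1 targets in blood numbered 19 on the list, of which 18 were named and 13 measured. On DKO against WT 2 were at least 2-fold higher and 0 lower, with a median of 0.81, and on p53 KO against WT 6 were higher and 0 lower, with a median of 0.89. By sign 12 of 13 were higher in each of these comparisons, which share the WT array. Over all genes 55.9% were higher by sign on DKO and 46.2% on p53 KO, and 5.22% and 6.51% were higher by at least 2-fold. For DKO against p53 KO the median was -0.31, with 1 gene higher and 2 lower by 2-fold, and 5 of 13 were higher by sign, where 58.8% of all genes were. By 2-fold, 4.10% of all genes were higher and 5.93% lower in that comparison.

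Spi1, the gene of the myeloid and B cell factor PU.1, had signals of 837 on DKO, 618 on p53 KO and 368 on WT, the same order as the brightest Runx1 probe set. Csf1r, the receptor for the macrophage growth factor, had 8826 on DKO, 15695 on p53 KO and 4841 on WT. Blk, a B cell kinase gene, had 193 on DKO, 650.5 on p53 KO and 130 on WT. Csf1r and Blk were highest on p53 KO, where Runx1 was not highest, and each is also on a marker list here, of monocytes and of B cells. Hoxa9, a homeobox gene of immature cells, ran the other way, at 11734 on DKO, 5711 on p53 KO and 6973 on WT. The B cell markers had a summed signal of 3383 on DKO, 8072 on p53 KO and 2140 on WT, and the megakaryocyte markers, which share Pf4 and Itga2b with the Runx1 target list, had 8049, 13511 and 4485. Their part in the Runx1 target values was not tested.

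Partners and cofactors of Runx proteins stayed near the values over all genes. Of 23 listed genes 22 were measured, and 1 was at least 2-fold higher on DKO than on WT, namely Tle2, a Groucho-type corepressor, with signals of 415 on DKO, 192 on p53 KO and 178 on WT. On p53 KO against WT, Runx1t1 (1.54) and the kinase gene Hipk2 (1.07) were at least 2-fold higher and Ring1, a polycomb gene, was lower (-1.08). Over all measured genes 5.22% were at least 2-fold higher on DKO than on WT. On p53 KO against WT 6.51% were higher and 3.19% lower, so the list counts against WT lay near the shares over all genes. On DKO against p53 KO 2 were at least 2-fold higher, Tle5 (1.37) and Tle2 (1.12), and 1 was lower, Runx1t1 (-1.59). Over all measured genes 4.10% were higher and 5.93% lower in that comparison. Across settings 0 to 2 of the list were higher and 0 to 1 lower there. Runx1t1, the gene fused to RUNX1 in a human leukaemia, had signals of 117 on DKO, 352 on p53 KO and 121 on WT. Tle5, a short relative of the Groucho genes, was at 395 on DKO, 153 on p53 KO and 233 on WT. These calls depended on the settings. For DKO against WT Tle2 was at 0.98 with quantile normalization and 0.96 with loess. It was not measured with the higher floor or among probe sets unique to a transcript. For p53 KO against WT, the mean over all probe sets put Runx1t1 at 0.33 and Hipk2 at 0.55, and the probe set unique to Runx1t1 gave 0.45. In the order DKO against WT, p53 KO against WT, DKO against p53 KO, the list medians were 0.13, 0.07 and 0.22, beside 0.07, 0.00 and 0.11 over all genes.

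Partners and regulators of C/EBP proteins were led by the AP-1 genes, whose products share the leucine zipper. Fos had signals of 14202 on DKO, 5890 on p53 KO and 1384 on WT, and Jun had 930.0, 369 and 180.0. Both were thus highest on DKO, unlike Cebpb and Cebpd. Trib2, a pseudokinase known to target the Cebpa protein for degradation, was at 678 on DKO, 848 on p53 KO and 2500 on WT. This is the reverse of the order of Cebpa RNA, though DKO differed little from p53 KO in Trib2 (-0.32) or Cebpa (0.24). The Cebpa protein was not measured, and a link between the genes was not tested. Atf5, a related zipper factor, was higher on DKO alone, at 387 on DKO, 170 on p53 KO and 162 on WT. Ddit3, which encodes the C/EBP-type stress factor CHOP, had 232 on DKO, 485 on p53 KO and 441 on WT. Of 22 listed genes 17 were measured, and 4 were at least 2-fold higher and 1 lower on DKO than on WT, 2 higher and 1 lower on p53 KO than on WT, and 3 higher and 1 lower on DKO than on p53 KO. The shares over all measured genes were 5.22% and 3.10%, 6.51% and 3.19%, and 4.10% and 5.93% in the same order. Across settings 2 to 5 were higher on DKO than on WT. The lower call against WT was Trib2, which was at -0.63 on DKO and -0.52 on p53 KO with the mean over all its probe sets, and had no measured probe set unique to it.

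For the 3 members with a difference of at least 2-fold, the genes most alike over the 3 arrays were found by the distance between log2 signals centred on each gene's mean. Cebpd was closest to Ctsh, a lysosomal protease gene, with signals of 644 on DKO, 2004 on p53 KO and 740 on WT (distance 0.015), to the macrophage marker gene Cd68 (0.017) and to Sh3yl1 (0.044). Cebpb was closest to Vopp1 (0.014), Rnf10 (0.018) and Syne1 (0.029). Cebpa, with its WT value at the floor, was closest to Epb41l3 (0.036), to the adhesion receptor gene Selp of platelets and endothelium (0.063) and to the chemokine receptor gene Ccr9 (0.063). Each gene has only 3 points here. Within a distance of 0.25 of Cebpd, Cebpb and Cebpa lay 78, 81 and 39 genes, of about 7706 compared. That limit is wider than the distances given above, so the counts do not show how common a likeness that close is.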

How the data were processed

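Expression was measured on 3 Affymetrix arrays of mouse LSK cells, 1 per genotype. The deposited table holds linear signal intensities, 1 per probe set and array, made with GCOS and MAS5 per the submitters' processing notes, with no version given. The 2% trimmed mean was 500 on each array, so global scaling had already been applied. No detection call was used, and the number of arrays limits the precision.

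Symbols came from the platform annotation, updated through the Entrez ID where RefSeq (GRCm38.p6) held it. Of the probe sets, 34958 carried 1 symbol, 932 several and 9211 none. Signals under the floor, the median of all signals (110.4), were set to it and log2 was taken. Each gene was read from the brightest of its probe sets, by mean signal, among those with 1 symbol, and was measured if any array reached the floor. Genes at least 2-fold different were counted over all measured genes. No test was possible and none was made.

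The members, the lists, the floor and the threshold were chosen with earlier results of these data known. All members are named, and of each of the 5 pathway lists up to 4 genes with the largest absolute difference per comparison, of which the text gives a part. The 3 genes most alike were taken for each member past 2-fold, among genes whose brightest array reached the 75th percentile of signals (448). Alternatives were quantile normalization and cyclic loess with 3 iterations (limma 3.58.1, R 4.3.3), floors at the 25th and 75th percentiles, no floor but a pseudocount of 32, the mean of a gene's probe sets, only probe sets whose suffix marks 1 transcript, and fold thresholds of 1.5 and 3. Tables were handled in Python 3.11.15 with pandas 2.3.3, and the calculation was tested on simulated data.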

Additional observations from a re-analysis of the deposited data

How the results depend on the processing

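No paired analysis was possible because there is 1 array per genotype, and for the same reason no array could be left out. Of 138 member differences recomputed under 7 alternative settings, 126 kept their direction and their side of 2-fold, and 4 fell under it. These 4 were Cebpb for p53 KO against WT (0.59) and, at -0.78, for DKO against p53 KO with the mean over all probe sets, and Cebpd in the same comparisons and setting (0.66 and -0.96). In that setting the brightest probe set is averaged with 1 at or near the floor. The other 8 changed sign. Cebpg, near 0 as reported, turned positive for DKO against WT at 0.08 with quantile normalization, 0.03 with loess and 0.15 with the mean over all probe sets, and for p53 KO against WT at 0.01, 0.05 and 0.32. Cebpg also turned positive for DKO against p53 KO with quantile normalization (0.07). Cebpa for DKO against p53 KO fell just under 0 with loess (0.00 after rounding). Cebpa kept at least 1.28 for DKO against WT and at least 1.15 for p53 KO against WT in 6 of 6 settings that measured it. With the floor at the 75th percentile Cebpa and Cebpb were no longer measured, which left 5 members, of which 0 were higher on DKO than on WT, 1 was higher on p53 KO than on WT and 1 was lower on DKO than on p53 KO, and the median for p53 KO against WT was 0.38. With the mean over all probe sets 1 member was higher on p53 KO than on WT and 0 were lower on DKO than on p53 KO. At 1.5-fold 3 members were higher on DKO than on WT and 1 was higher on DKO than on p53 KO. At 3-fold 0 members were higher on DKO or p53 KO than on WT, and 1 was lower on DKO than on p53 KO. The members' median for DKO against WT was 0.29 with the mean over all probe sets and 0.28 with probe sets unique to a transcript, and for DKO against p53 KO it was 0.07 with quantile normalization, 0.00 with loess and 0.10 with unique probe sets. Loess also moved the median of all genes for DKO against p53 KO to 0.006, against 0.112 as reported.

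Counts over all genes moved with the floor and the threshold by construction. Given as higher and lower for DKO set against WT, p53 KO set against WT and DKO set against p53 KO in turn, they were 1861 and 755, 1531 and 895, and 1553 and 1200 when the floor was the 25th percentile, and 202 and 233, 417 and 234, and 159 and 465 with the floor at the 75th. They were 2157 and 1199, 1936 and 1571, and 2140 and 1532 at 1.5-fold, and 95 and 106, 230 and 64, and 54 and 314 at 3-fold. With the mean over all probe sets they were 340 and 238, 518 and 245, and 259 and 495. With loess 432 genes were higher on DKO than on WT and 317 higher on DKO than on p53 KO, and the cause was not tested. For the pathway lists, settings added after the values were seen gave 10 to 16 C/EBP targets at least 2-fold higher on p53 KO than on WT and 11 to 14 lower on DKO than on p53 KO, and 4 to 7 Runx1 targets higher on p53 KO than on WT. The list of other master factors turned to a median of -0.20 for DKO against p53 KO with unique probe sets. Low signal limits Cebpa and Cebpb most, since both lay near the floor on at least 1 array.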

Other observations

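Other master factors of blood were followed beside the Runx and C/EBP genes on a list of 20, all measured. On DKO against WT 6 were at least 2-fold higher and 4 lower, on p53 KO against WT 3 were higher and 1 lower, and on DKO against p53 KO 0 were higher and 4 lower. Over all measured genes the shares higher and lower were 5.22% and 3.10%, 6.51% and 3.19%, and 4.10% and 5.93% in the same order. The ETS factor gene Erg had signals of 3262 on DKO, 2094 on p53 KO and 1368 on WT, the same order as Cbfb and the brightest Runx1 probe set. The erythroid factor genes ran the other way, with Gata1 at 1422 on DKO, 3855 on p53 KO and 4923 on WT, and Klf1 at 1972, 9033 and 12847. These values stood beside lower erythroid markers, of which 9 of 12 measured were at least 2-fold lower on DKO than on WT and 10 of 12 lower than on p53 KO. Their summed signal was 35648 on DKO, 129380 on p53 KO and 115248 on WT, with Hba-a1 under the floor on each array. Klf1 is itself on the erythroid marker list, so it enters these counts and this sum. The part of erythroid cells in the Gata1 and Klf1 values was not tested. Irf8, a factor of monocytes and dendritic cells, had signals of 3816 on DKO, 4541 on p53 KO and 1798 on WT. The B cell factor gene Ebf1 peaked on p53 KO by its brightest probe set, at 222 on DKO, 749 on p53 KO and 154 on WT. Its brightest probe set unique to a transcript gave 0.46 for p53 KO against WT and -1.07 for DKO against WT. With the mean over all its probe sets these were 0.99 and -0.11.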
